A study of Mus musculus with 18 samples.

Results

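The 4 Hox gene clusters of the mouse were described in mouse embryonic fibroblasts (MEFs) from the peaks of 4 histone marks that overlapped a window around each cluster. The windows were chr6:52095001-52225000 for HoxA, chr11:96020001-96240000 for HoxB, chr15:102740001-102880000 for HoxC and chr2:74490001-74610000 for HoxD, in genome build NCBIM37 and counted from 1. Of 225177 peaks in 8 lists, 577 overlapped a window by at least 1 base. In the GFP libraries these were 99 peaks of H3Ac, 98 of H3K4me3, 114 of H3K27me3 and 3 of H3K9me3, and in the Cre libraries 82, 79, 100 and 2.

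The fibroblasts came from a mixed B6;129 background and carried a conditional allele of Rb, a tumour suppressor gene. The GFP cells were infected with Adeno-GFP, a control virus, and kept the allele. The Cre cells were infected with Adeno-Cre to delete it. Both were expanded for at most 3 passages after infection, and neither received the 4F construct. Each mark had 1 library per condition, so GFP and Cre could not be tested against each other and no p-value is given. How complete the deletion was, and whether the cells were fibroblasts by their markers, cannot be read from peak lists and was not tested. Where 2 marks overlap in such bulk libraries, the same chromosomes carrying both and different cells carrying 1 each cannot be told apart.

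Hox genes encode homeodomain transcription factors that set position along the body axis and in the limbs. Genes with the same number in different clusters are relatives, called a group, and their order on the chromosome follows the order in which they are switched on along the axis, with group 13 at the most posterior end. Fibroblasts in culture keep part of the Hox pattern of the place in the body they came from. H3K4me3 and acetylated histone H3 (H3Ac, detected with a pan-acetyl antibody) mark active promoters and their surroundings. H3K27me3 is laid down by the Polycomb repressive complexes, which hold silent Hox genes shut in broad domains. H3K9me3 is a mark of heterochromatin.

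The 38 member genes are placed here by their order alone, taken from the RefSeq gene table on assembly GRCm38.p6, because no annotation of the build of the peaks was used and coordinates were not converted. Sorted by the lower coordinate of each gene in that table, HoxA runs Hoxa2, Hoxa3, Hoxa4, Hoxa5, Hoxa6, Hoxa7, Hoxa9, Hoxa10, Hoxa11 and Hoxa13. HoxB runs Hoxb13, Hoxb9, Hoxb8, Hoxb7, Hoxb6, Hoxb5, Hoxb3, Hoxb4, Hoxb2 and Hoxb1. HoxC runs Hoxc13, Hoxc12, Hoxc11, Hoxc10, Hoxc9, Hoxc8, Hoxc6, Hoxc5 and Hoxc4. HoxD runs Hoxd13, Hoxd12, Hoxd11, Hoxd10, Hoxd9, Hoxd8, Hoxd3, Hoxd4 and Hoxd1. In this sort Hoxb3 precedes Hoxb4 and Hoxd3 precedes Hoxd4, out of the order of their numbers. A long gene record can precede a neighbour that it spans, so the sort need not give the order of these pairs along the cluster. The group 13 gene thus lies at the high end of HoxA and at the low end of the other 3 clusters. Hoxa13 and Hoxd13 act in digits and the genital region, Hoxa2 patterns the second branchial arch, and Hoxb1 acts in the hindbrain. No peak is assigned to a single gene below.

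H3K4me3 and Polycomb complexes both gather at stretches rich in CpG, so the upstream sequences of the outermost member genes of HoxA and HoxD are shown. RefSeq promoters on GRCm38.p6 were at hand for 22 of the 38 member genes, 24 promoters in all. Their 250 bases upstream of the start held a median of 12.5 CpG, from 2 to 35, against 6 over all 32851 promoters. At least 10 CpG were found in 62.5% of the member promoters and 37.8% of all. CpG was counted as the letters CG, which read the same on both strands, and is in capitals. The Hoxa13 stretch (chr6:52260881-52261130 in GRCm38.p6, minus strand) held 35 CpG and the Hoxa2 stretch (chr6:52164832-52165081, minus strand) held 6. The Hoxd13 stretch (chr2:74667975-74668224, plus strand) held 31 and the Hoxd1 stretch (chr2:74762730-74762979, plus strand) held 24. These positions belong to another build than the peaks and cannot be set against them. All 4 are written 5′ to 3′ along the gene's strand.
Hoxa13: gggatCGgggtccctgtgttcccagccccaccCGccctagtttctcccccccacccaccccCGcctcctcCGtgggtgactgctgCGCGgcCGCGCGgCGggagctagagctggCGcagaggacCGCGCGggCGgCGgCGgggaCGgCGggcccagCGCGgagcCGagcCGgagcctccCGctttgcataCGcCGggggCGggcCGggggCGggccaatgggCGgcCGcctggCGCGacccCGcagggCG
Hoxa2: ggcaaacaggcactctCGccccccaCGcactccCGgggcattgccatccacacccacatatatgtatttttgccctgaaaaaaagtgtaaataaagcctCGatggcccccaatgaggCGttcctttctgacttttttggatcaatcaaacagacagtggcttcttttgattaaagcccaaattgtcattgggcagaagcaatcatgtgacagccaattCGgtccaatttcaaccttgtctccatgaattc
Hoxd13: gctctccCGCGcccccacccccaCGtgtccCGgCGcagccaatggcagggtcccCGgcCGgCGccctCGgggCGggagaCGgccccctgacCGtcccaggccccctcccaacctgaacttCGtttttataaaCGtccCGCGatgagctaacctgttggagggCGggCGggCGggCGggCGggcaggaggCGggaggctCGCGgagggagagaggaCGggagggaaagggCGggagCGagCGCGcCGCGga
Hoxd1: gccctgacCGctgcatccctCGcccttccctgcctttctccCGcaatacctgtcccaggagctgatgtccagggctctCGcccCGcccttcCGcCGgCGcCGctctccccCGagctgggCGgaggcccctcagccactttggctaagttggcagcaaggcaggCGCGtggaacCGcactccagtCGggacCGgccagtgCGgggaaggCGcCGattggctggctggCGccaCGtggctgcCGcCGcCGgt

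H3K27me3 covered most of HoxB, HoxC and HoxD and less of HoxA, in both libraries. Each window was divided into bins of 1 kb, and a bin was said to carry a mark when peaks covered at least 50% of it. In GFP cells H3K27me3 was on 91.4% of the HoxB bins (exact 95% binomial interval 86.8 to 94.7%), 92.1% in HoxC (86.4 to 96.01%), 85.8% in HoxD (78.3 to 91.5%) and 36.9% in HoxA (28.6 to 45.8%). In Cre cells the shares were 96.4% in HoxB (93.0 to 98.4%), 97.1% in HoxC (92.8 to 99.2%), 89.2% in HoxD (82.2 to 94.1%) and 40.8% in HoxA (32.2 to 49.7%). HoxA lay below the other 3 windows in both libraries, with intervals that do not overlap theirs. The intervals here and below cover counting error only and treat bins or peaks as independent, which neighbours are not.

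**Figure D1:**
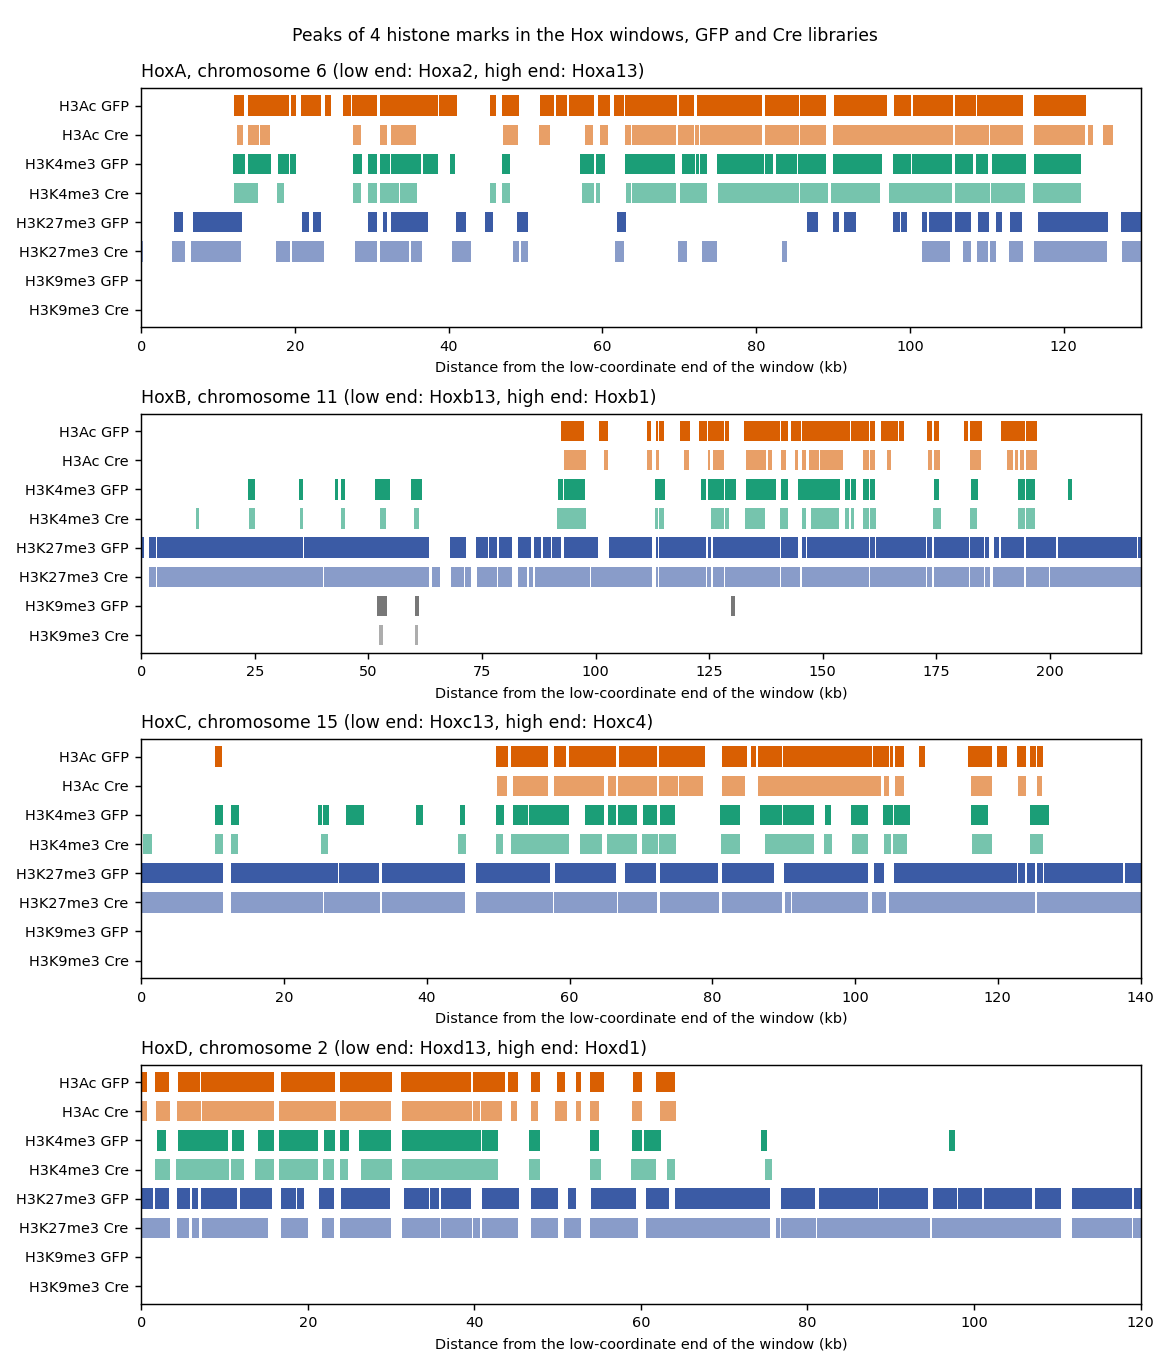
Peaks of H3Ac, H3K4me3, H3K27me3 and H3K9me3 in the 4 Hox windows, against the distance from the low-coordinate end of the window in kb. Each bar is 1 peak clipped to the window, with dark shades for the GFP library and light shades for Cre. H3K27me3 runs through HoxB, HoxC and HoxD, and H3K9me3 is found in HoxB alone.

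The H3K27me3 domains were broad. Peaks of at least 10 kb were 13 of 114 in the GFP library and 17 of 100 in Cre, against 0.713% and 0.825% of the whole lists. HoxB held 6 and 8 of them, HoxC 6 and 7, HoxD 1 and 2, and HoxA none. The widest in HoxC was chr15:102731699-102751472 in GFP, 19774 bases with a score of 3100, and chr15:102725035-102751467 in Cre, 26433 bases with the same score. Both lie at the Hoxc13 end and begin outside the window, which starts at chr15:102740001, so their widths include bases beyond it. The score is the peak caller's own, has no stated unit, and stands at 3100 for many leading peaks of a list, so that it does not rank these. In HoxD the widest was chr2:74554139-74565509 in GFP, 11371 bases, and chr2:74550556-74565519 in Cre, 14964 bases, on the side away from Hoxd13. The widest H3K27me3 peak of HoxA was shorter, chr6:52211610-52220778 with 9169 bases in GFP and chr6:52211095-52220696 with 9602 bases in Cre, near the Hoxa13 end.

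In HoxB, HoxC and HoxD active marks mostly lay on top of H3K27me3, and in HoxA mostly apart from it. Over the 610 bins of the 4 windows, GFP cells had 86 bins with H3Ac or H3K4me3 and no H3K27me3 (called active), 264 with H3K27me3 alone (called Polycomb), 217 with both and 43 with neither. Cre cells had 58, 314, 194 and 44. Of the bins with an active mark, those that also had H3K27me3 were 92.6% in HoxB, 90.1% in HoxC and 83.0% in HoxD in GFP cells, and 34.7% in HoxA. In Cre cells they were 98.2%, 98.5% and 89.8%, and 37.8% in HoxA. These shares are close to the H3K27me3 share of all bins of the same window. That share was 91.4%, 92.1%, 85.8% and 36.9% in GFP (HoxB, HoxC, HoxD, HoxA), and 96.4%, 97.1%, 89.2% and 40.8% in Cre. The overlap thus follows the cover by H3K27me3, and no preference of active marks for H3K27me3 or against it is read from it.

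**Figure D2:**
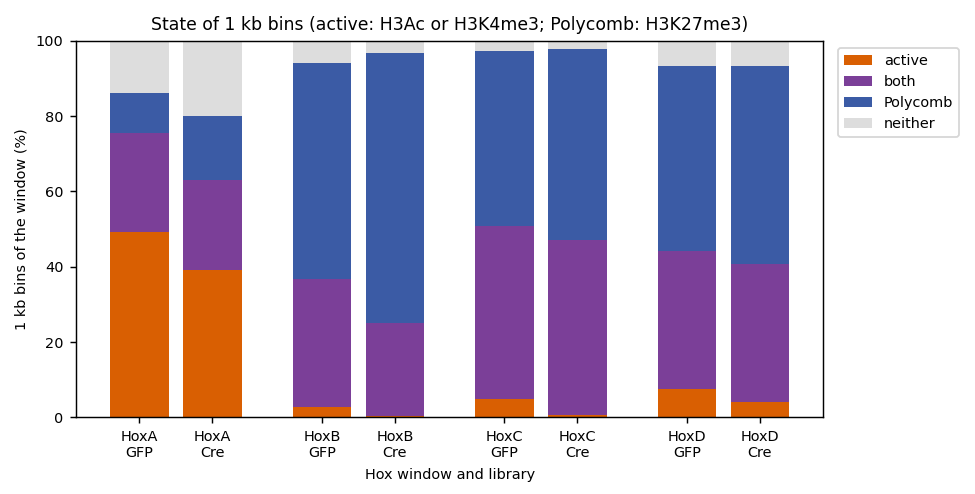
State of the 1 kb bins in percent of each window, for the GFP and Cre libraries. Active is H3Ac or H3K4me3 without H3K27me3, Polycomb is H3K27me3 alone. Active bins make up 49.2% of HoxA in GFP and 39.2% in Cre, and at most 7.5% of the other windows.

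The same held peak by peak. H3K4me3 peaks that overlapped H3K27me3 of the same library by at least 1 base were 81 of 98 in GFP (82.7%, interval 73.7 to 89.6%) and 70 of 79 in Cre (88.6%, 79.5 to 94.7%). Over the whole lists the shares were 12.3% and 13.1%. In HoxB, HoxC and HoxD, 25, 25 and 17 of the GFP peaks and 25, 19 and 14 of the Cre peaks did so, which is all of them. In HoxA it was 14 of 31 in GFP and 12 of 21 in Cre. Most of HoxB, HoxC and HoxD lay under H3K27me3, so a peak placed anywhere there would mostly overlap it.

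A single border between active and Polycomb bins was therefore sought in each window and was clear in few of them. In HoxA of Cre cells the border that put most bins on the correct side lay at chr6:52138000-52140000, with the active side toward Hoxa13 and 87.7% of 73 active or Polycomb bins on the correct side, against 69.9% with no border. In HoxA of GFP cells 2 places tied at 89.7%, at 12 and 123 kb from the low end and in opposite directions, so that Polycomb bins lay at both ends of an active middle. In HoxD the active side was toward Hoxd13, with the border at chr2:74531000-74538000 in GFP (91.2% of 68 bins, 86.8% with no border) and chr2:74512000-74533000 in Cre (95.6% of 68 bins, 92.6% with no border). In HoxB and HoxC no border did better than none. With H3K4me3 as the sole active mark no place of the border could be told in HoxD either.

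**Figure D3:**
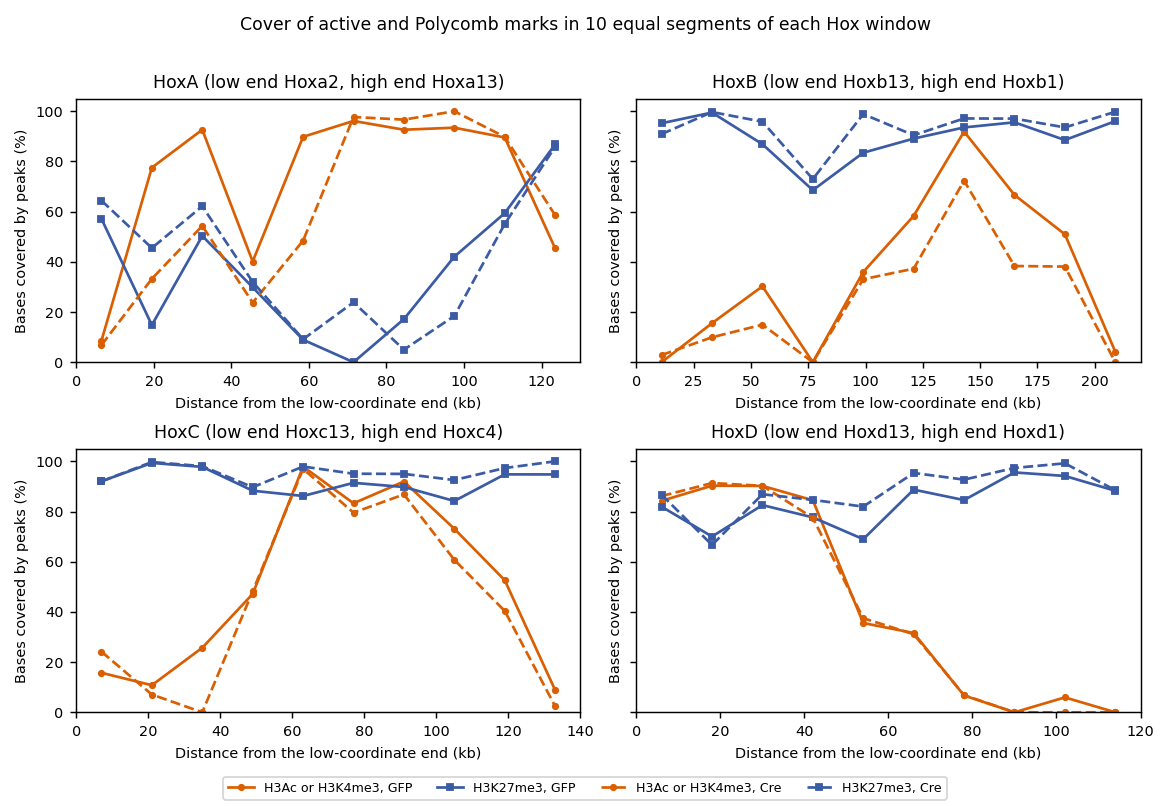
Percent of bases covered by H3Ac or H3K4me3 peaks (circles) and by H3K27me3 peaks (squares) in each of 10 equal segments of the 4 windows, against the distance from the low-coordinate end in kb, with solid lines for GFP and broken lines for Cre. In HoxD active cover falls from 84.3% to 0% in GFP along the cluster, while H3K27me3 stays at 69.0% or more.

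Since the border had no one place in several windows, each window was cut at its middle. The cut was by bases and not by genes. The member genes on each side were not counted, so whether their number accounts for a difference between sides was not tested. The active marks on the side of the group 13 gene were compared with those on the other side, whatever the H3K27me3. HoxA and HoxD carried more active marks on the group 13 side, and HoxB and HoxC fewer. In HoxD, 78.3% of the 60 bins of the Hoxd13 side carried an active mark in GFP (65.8 to 87.9%) and 10.0% of the other side (3.76 to 20.5%). In Cre these were 73.3% and 8.33%. In HoxA the Hoxa13 side had 84.6% in GFP and 90.8% in Cre, and the other side 66.2% and 35.4%. In HoxB the Hoxb13 side had 17.3% and 12.7%, and the other side 56.4% and 37.3%. In HoxC the Hoxc13 side had 38.6% and 37.1%, and the other side 62.9% and 57.1%. The HoxC difference rests on H3Ac. With H3K4me3 alone its sides had 32.9% and 40.0% in GFP and 35.7% and 37.1% in Cre. In HoxD and HoxB the differences with H3K4me3 alone, group 13 side minus the other, kept their sign at 55 and 53.3 percentage points and at -20 and -15.5 (GFP and Cre). This measure was chosen after the border and a first replacement for it had been tried on the same data, with its direction already seen, so that its direction across settings is no separate support.

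**Figure D4:**
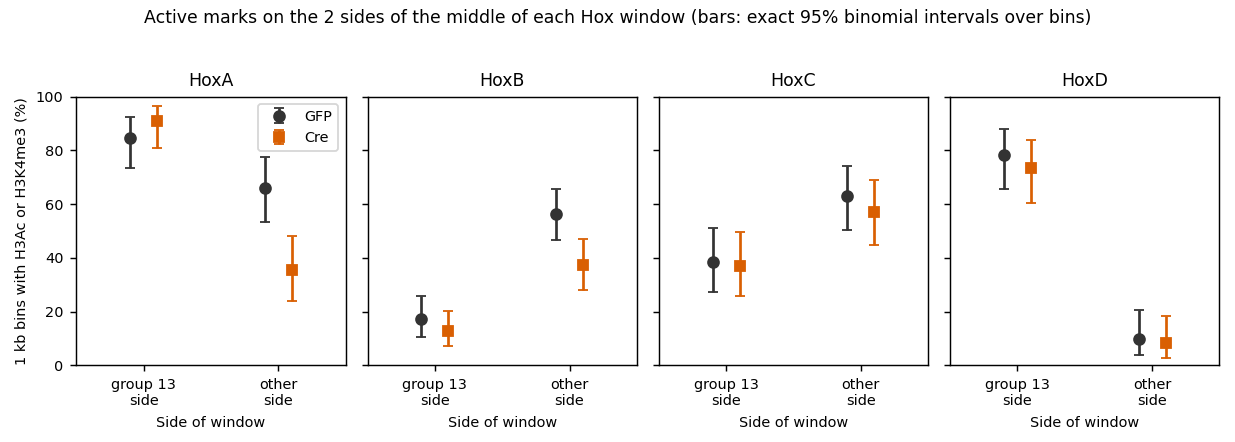
Percent of 1 kb bins with H3Ac or H3K4me3 on the side of the group 13 gene and on the other side of the middle of each window, for GFP (circles) and Cre (squares). Bars are exact 95% binomial intervals over bins. The side of HoxA away from Hoxa13 has 66.2% in GFP and 35.4% in Cre.

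In HoxD the active marks stopped partway along a cluster that stayed under H3K27me3 throughout. H3Ac covered 83.1%, 88.0%, 90.2% and 81.7% of the first 4 of 10 equal segments from the Hoxd13 end in GFP, and 81.2%, 90.9%, 89.1% and 71.3% in Cre. It covered 34.3% and 19.6% of the next 2 in GFP and none of the last 4 in either library. H3K27me3 covered 70.0% to 82.6% of the first 4 segments in GFP and 84.6% to 95.6% of the last 4. The last H3Ac peak of the cluster was chr2:74551815-74554073 in GFP, with a score of 321, and chr2:74552253-74554234 in Cre, with a score of 161. Beyond it stood 2 H3K4me3 peaks in GFP, with scores of 65.6 and 53.4, and 1 in Cre, with 51.1. These scores are close to the lowest of the lists, which is 50 to 50.02. The longest run of Polycomb bins was 20 kb in GFP, chr2:74567001-74587000, and 35 kb in Cre, chr2:74566001-74601000, where the weakest GFP H3K4me3 peak had no counterpart. The widest H3K4me3 peak of HoxD was chr2:74521264-74530852 in GFP, 9589 bases with a score of 2200, and chr2:74521261-74532877 in Cre, 11617 bases with 3100.

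HoxA was the sole window with long stretches of active marks free of H3K27me3. The longest run of active bins was 24 kb in GFP, chr6:52158001-52182000, and 18 kb in Cre, chr6:52179001-52197000. In the other windows no such run was longer than 2 kb. Both runs lie on the Hoxa13 side of the middle or across it, while the segment at the Hoxa13 end itself, 1 of 10, had H3K27me3 on 86.8% of its bases in GFP and 85.9% in Cre, beside H3Ac on 45.4% and 58.6%. H3Ac reached a score of 3100 in 8 HoxA peaks of GFP, and its widest Cre peak was chr6:52185013-52200642, 15630 bases.

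In HoxB the active marks stood off the middle, toward Hoxb1, and in HoxC around the middle. In both they covered less toward the 2 ends, though not steadily. In HoxB the seventh segment from the Hoxb13 end had the highest cover by active marks, 91.9% in GFP and 72.3% in Cre, with H3K27me3 on 93.6% and 97.1% of the same segment. In HoxC the fifth had 97.9% and 97.0%, with H3K27me3 on 86.2% and 97.9%. The segment at the far end from the group 13 gene had 4.18% and 0% in HoxB and 8.84% and 2.41% in HoxC. At the Hoxc13 end the first segment had 15.7% in GFP and 24.2% in Cre, the second 10.8% and 7.08%, and the third 25.7% and 0%. The highest-scoring H3K4me3 peaks of HoxB included chr11:96112957-96117599 in GFP and chr11:96111529-96117914 in Cre, both at 3100. In HoxC the widest H3Ac peak was chr15:102831118-102842383 in GFP, 11266 bases, and chr15:102826453-102842412 in Cre, 15960 bases.

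The group 13 sides of HoxB and HoxC, and in smaller number other places, held H3K4me3 peaks under H3K27me3 with no acetylation. In HoxB no H3Ac peak lay in the first 4 segments from the Hoxb13 end in either library. On the Hoxb13 side, 6 of 8 H3K4me3 peaks in GFP and 6 of 7 in Cre overlapped H3K27me3 and no H3Ac. On the Hoxc13 side it was 6 of 14 and 5 of 9. Over the whole lists 8.61% of the H3K4me3 peaks in GFP and 6.85% in Cre were of this kind, and over the 4 windows 15 of 98 and 18 of 79. These shares depend on how many H3K4me3 peaks overlap H3K27me3 at all. Among those that do, 2049 of 2921 in GFP and 1549 of 2967 in Cre had no H3Ac over the whole lists. In the 4 windows it was 15 of 81 and 18 of 70, a smaller share. No excess in the windows of peaks of this kind is therefore read from the shares of all H3K4me3 peaks. On the Hoxa13 and Hoxd13 sides there were none among 16 and 14 peaks in GFP and 9 and 11 in Cre. On the sides away from group 13 there were 2 of 3 in HoxD, 1 of 17 in HoxB and none in HoxA and HoxC in GFP, and 1 of 3 in HoxD, 4 of 18 in HoxB, 2 of 12 in HoxA and none in HoxC in Cre. The strongest was chr11:96071485-96074817 in HoxB of GFP, 3333 bases with a score of 845, and its Cre counterpart chr11:96072457-96073800 had 1344 bases and a score of 112. The next, chr11:96079453-96081886, had a score of 623 in GFP, and its counterpart chr11:96080142-96081186 had 113 in Cre. The median score over the whole H3K4me3 list was 565 in GFP and 887 in Cre, and these were the 2 of the 15 GFP peaks of this kind above the GFP median. The median over all 15 was 115, and over the 18 in Cre 110, with none above the Cre median. In HoxC, chr15:102768677-102771259 had a score of 533 in GFP and no peak in Cre.

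Those same 2 HoxB sites were also where H3K9me3 was found. The 4 windows held 3 H3K9me3 peaks in GFP and 2 in Cre, all in HoxB. The peak chr11:96071816-96074084 had a score of 237 in GFP and overlapped chr11:96072323-96073237 with 90.3 in Cre. The peak chr11:96080167-96081199 had 116, and its counterpart chr11:96080277-96081010 had 73.6. The third GFP peak, chr11:96149806-96150787, had 88.2 and no Cre counterpart. Each of the 5 overlapped both H3K27me3 and H3K4me3 of its library and none overlapped H3Ac. The H3K9me3 list held 10885 peaks in GFP and 3985 in Cre, and 81% of the GFP peaks had no Cre counterpart.

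Between GFP and Cre the state of a bin stayed the same for 458 of the 582 bins marked in either library, and HoxA differed most. The share in another state was 41.5% in HoxA (49 of 118), 18.2% in HoxB (39 of 214), 16.1% in HoxC (22 of 137) and 12.4% in HoxD (14 of 113). Over all marked bins of the autosomes it was 39.9%, so the HoxA share is near that of the genome and the other 3 lie below it.

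The kinds of difference were set against the autosomes in the same way. Of the 86 active bins in GFP, 25 also carried H3K27me3 in Cre (29.1%, interval 19.8 to 39.9%), against 0.481% of active autosomal bins. Of the 217 bins with both, 43 had H3K27me3 alone in Cre (19.8%, 14.7 to 25.7%), against 27.3%, so that this was no more frequent in the windows. Of the 264 Polycomb bins, 8 also carried an active mark in Cre (3.03%, 1.32 to 5.88%), against 1.28%. Active bins in GFP with H3K27me3 alone in Cre were 5 (5.81%, against 0.195%) and with no mark 13 (15.1%, against 28.2%). Bins with both marks in GFP and active in Cre were 12 (5.53%, against 7.67%). The 25 bins that went from active to both were 10 in HoxA, 3 in HoxB, 7 in HoxC and 5 in HoxD. The bins of the windows and of the autosomes were not matched for their distance from H3K27me3 peaks.

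In HoxA the libraries differed on both sides of the middle, in different ways. Of the 49 bins in another state, 29 lay on the side of Hoxa2 and 20 on that of Hoxa13. On the Hoxa2 side the active marks covered less in Cre, and 12 bins went from active in GFP to no mark in Cre. There H3Ac peaks covered 39.1 kb in GFP and 16.2 kb in Cre, H3K4me3 peaks 23.1 and 16.5 kb, and H3K27me3 peaks 20.9 and 27.7 kb. The Cre to GFP ratios were 0.414, 0.714 and 1.32, against 0.847, 1.08 and 1.06 over the whole lists. On the Hoxa13 side the ratios were 1.06, 1.05 and 0.916, sums over shifts of H3K27me3 in both directions. There 6 bins went from active in GFP to both in Cre and 9 from both to active. In the sixth segment from the low end H3K27me3 covered 0% in GFP and 23.9% in Cre, in the seventh 17.2% and 4.98%, and in the eighth 42.0% and 18.4%. The share of bins with an active mark on the Hoxa2 side was 66.2% in GFP (53.4 to 77.4%) and 35.4% in Cre (23.9 to 48.2%). With H3K4me3 as the sole active mark the share was 38.5% and 27.7%. The intervals count neighbouring bins of 1 library each and do not measure the spread between libraries of a condition, so GFP and Cre are not compared by them.

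Leading peaks of the Hoxa2 side differed as follows, and not all peaks there went one way. The widest H3Ac peak of HoxA in GFP, chr6:52126099-52133572, had 7474 bases and a score of 2042, and in Cre the place held chr6:52126096-52126925 with 69.4 and chr6:52127523-52130689 with 305. The median H3Ac score of the whole lists was 224 and 227. The H3K4me3 peak chr6:52108841-52111843 had a score of 2051 in GFP, and chr6:52108810-52110188 had 670 in Cre. The H3K27me3 peak chr6:52101780-52108066 had 950 in GFP, and chr6:52101496-52108009 had 2095 in Cre. At chr6:52114566-52118731 Cre had an H3K27me3 peak of 4166 bases with a score of 950, where GFP had 2 peaks with scores of 55.4 and 53.2 and an H3Ac peak, chr6:52115823-52118417, with 462. That H3Ac peak had no Cre counterpart. Against these, the H3K4me3 peak chr6:52141902-52142979 had a score of 250 in GFP and its counterpart chr6:52141921-52142903 had 552 in Cre. The H3K27me3 peak chr6:52139652-52140814, with a score of 126, was in GFP only.

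In HoxB too the active marks covered less in Cre than in GFP, and in HoxC and HoxD the libraries were closer. H3Ac covered 62.7 kb of HoxB in GFP and 39.8 kb in Cre, a ratio of 0.634, and H3K4me3 54.8 and 42.2 kb, a ratio of 0.770. The H3Ac ratio was 0.877 in HoxC and 0.972 in HoxD, and the H3K4me3 ratio 0.957 and 1.04. H3K27me3 cover was higher in Cre in each window, with ratios of 1.10 in HoxA, 1.04 in HoxB, 1.04 in HoxC and 1.06 in HoxD, near the 1.06 of the whole list. Of the 43 bins with both marks in GFP and H3K27me3 alone in Cre, 25 lay in HoxB. The widest H3Ac peak of HoxB was chr11:96166590-96175108 in GFP, 8519 bases with a score of 2948, and chr11:96169467-96174479 in Cre, 5013 bases with 916.

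Of all 577 peaks, 56 were found in 1 library only, and 28 of these had a score of at least 100. Of the H3Ac peaks, 22 of 99 in GFP had no overlapping Cre peak (whole list 26.6%) and 2 of 82 in Cre had no GFP peak (15.4%). Of the H3K4me3 peaks it was 9 of 98 (10.7%) and 4 of 79 (12.6%), and of the H3K27me3 peaks 8 of 114 (30.5%) and 10 of 100 (33.6%). For H3K9me3 it was 1 of 3 (81%) and none of 2 (39.9%). The GFP shares of H3Ac and H3K4me3 are near those of the lists, and the H3K27me3 shares lie below them. HoxA held 7 of the 8 and 6 of the 10 H3K27me3 peaks in 1 library only. These were 29.2% of its 24 peaks in GFP and 26.1% of its 23 in Cre, near the shares of the lists. The lower shares thus come from the other windows. The share over the whole lists at a score of at least 100 was not computed, so the counts at that score have no background and are not read as a difference. With a score of at least 100 there were 14 H3Ac peaks in GFP only and 1 in Cre only, 2 and 1 of H3K4me3, and 4 and 6 of H3K27me3. Besides the HoxA and HoxC peaks named above, the highest of these were the H3Ac peak chr6:52133770-52136132 in GFP with a score of 225, the H3K4me3 peak chr6:52131692-52133585 in GFP with 240, and the H3K27me3 peaks chr6:52167991-52169919 with 268 and chr6:52112551-52114291 with 211 in Cre. Absence of a peak means that none passed the authors' threshold there, and the depth of the libraries is unknown.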

How the data were processed

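The series holds 18 samples, of which the 8 peak lists of histone marks were used and the other 10 were not analysed here. The build was NCBIM37 and the peak caller MACS 1.4.1, beside BWA and bedtools 2.16.2, per the submitters' processing notes. The deposited lists give other values per peak, the start and end positions, and a score with no stated unit. Peaks were called per library. The sources used here give neither the control input of each list nor the read depth, and depth alone can lengthen a list.

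From these lists, peaks in the windows were counted, cover in bases was summed, and 1 kb bins were given a state (a mark on at least 50% of the bin). Peaks of 2 libraries counted as shared from 1 base on. Intervals are exact (Clopper-Pearson, 95%). The code was tested on simulated data. The members, the windows and the lists were chosen with earlier results of these data known. The peaks named are the widest and the highest-scoring per cluster, mark and library, those next to the border, and those in 1 library only with a score of at least 100, and the text gives the leading ones.

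The planned measure of the switch was a single border. After it was found to have no one place in several windows, 2 replacements were tried on the same data: first the stretch of bins holding most active marks, set aside because its ends moved between settings, then the comparison of the 2 sides of the middle, kept with its steadier direction already seen. The 10 segments, the peaks without H3Ac, the autosomal background, the side of HoxA described in detail, the peaks named there and in the section on H3K4me3 without H3Ac, the minimum of 10 CpG and the 4 promoters printed were also chosen after the values were seen. Planned states at gene starts and a list of cofactor genes were not run, since no annotation of the build was used. Alternatives were a score of at least 100, peaks merged within 1000 bases, equal numbers of top-scoring peaks, at least 1 base of a bin, bins of 500 bases, H3K4me3 alone, and overlap of at least 50% of the peak. The tools were SciPy 1.17.1, pandas 2.3.3, matplotlib 3.10.9 and NumPy 2.4.6 under Python 3.11.15.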

Additional observations from a re-analysis of the deposited data

How the results depend on the processing

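No result was counted as reversed under the alternatives. Shares and counts have no direction, so only the border and the comparison of sides could reverse. The border of HoxA in GFP, tied in both directions, could not be counted so. Its active side lay toward Hoxa13 with at least 1 base of a bin and with bins of 500 bases, and toward Hoxa2 with H3K4me3 alone. The cause of each shift below was not tested unless it follows from the setting. In HoxA and HoxD, 15 of 24 alternatives kept the border's direction and both ends of its range within 5 kb. These include HoxA of GFP cells with a score of at least 100, merged peaks and equal numbers of peaks. There the tie at 12 and 123 kb remained, with no 1 direction to keep. In HoxB and HoxC, where no border did better than none, its place has no meaning and its steadiness is not counted. Values stayed within their interval in 32 of 40 alternatives for the H3K27me3 share, 22 of 24 for the bins in the same state and 6 of 8 for the H3K4me3 peaks with H3K27me3. The peaks in 1 library only stayed within 1.5 times in 21 of 31. For the comparison of the 2 sides of each window, 37 of 48 kept the share of each side within its own interval. The difference between sides has no interval, and the shifts below are given as differences. The sides were chosen with their direction in these settings known. The measure tried before them, the stretch holding most active marks, moved by over 5 kb in 19 of 96 alternatives over its 16 ends, by up to 45 kb (the low end in HoxA of GFP cells, from 12 to 57 kb with H3K4me3 alone).

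A bin counted from 1 base on raises cover by construction: the H3K27me3 share became 53.8% and 54.6% in HoxA (GFP and Cre), 96.8% and 98.6% in HoxB, 99.3% and 100% in HoxC, and 97.5% and 98.3% in HoxD, and the same-state share 87.6% in HoxB and 97.5% in HoxD. The bins on the correct side of the border became 87.0% in HoxA GFP, 100% in HoxB Cre, 96.3% in HoxC GFP, 100% in HoxC Cre, 98.3% in HoxD GFP and 100% in HoxD Cre, and the difference between sides -34.5 percentage points in HoxB Cre, -21.4 in HoxC GFP, 80 in HoxD GFP and 83.3 in HoxD Cre. With bins of 500 bases the border gave 87.7% in HoxA GFP and 96.15% in HoxC Cre, with a score of at least 100 94.9% in HoxC Cre, and with merged peaks 100% in HoxB Cre. With H3K4me3 alone it gave 81.8% in HoxA GFP, at 117 to 122 kb with the active side at the low end, 90.5% in HoxD GFP and 94.5% in HoxD Cre, where both directions tied. With H3K4me3 alone the sides differed by 40 percentage points in HoxA GFP, -20 in HoxB GFP, -15.5 in HoxB Cre, -7.14 in HoxC GFP, -1.43 in HoxC Cre, 55 in HoxD GFP and 53.3 in HoxD Cre.

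Merging peaks raised the H3K4me3 peaks with H3K27me3 to 94.2% in GFP and 96.1% in Cre, and lowered the peaks in 1 library only to 2 (H3Ac, GFP), 1 (H3Ac, Cre), 5 (H3K4me3, GFP), 4 (H3K27me3, GFP) and 3 (H3K27me3, Cre). An overlap of at least 50% gave 16 for H3K4me3 in GFP and 2 for H3K9me3 in GFP. A score of at least 100 gave 2 for H3K9me3 in GFP and 2 for H3K4me3 in Cre, and left no H3K9me3 peak in Cre, so that no value was had there. Equal numbers of peaks gave 0 for H3K9me3 in GFP. No paired analysis was possible because each mark had 1 library per condition. The unknown depth limits every comparison of GFP with Cre, and a missing peak is not a missing mark.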
